A study of Mus musculus with 20 samples.

Results

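Chemokines are small secreted proteins that attract leukocytes, and the chemokine receptors are the G protein-coupled receptors through which leukocytes read them. The genes of both kinds were examined in the epidermis and pancreas of wild-type C57BL/6 mice with and without chronic inflammation. The members were chosen by symbol alone, as every gene named Ccl, Cxcl, Ccr or Cxcr with a number, together with Cx3cl1, Cx3cr1, Xcl1, Xcr1, Pf4 and Ppbp. This rule found 58 of the 55471 genes in the count table, of which 40 encode ligands and 18 encode receptors. Skin came from young mice of both sexes that were sensitized with the contact allergen DNFB on the abdomen and then received DNFB in acetone and olive oil repeatedly on the back over several weeks, or that received the acetone vehicle alone, and RNA was taken from the epidermis of the back skin. Pancreas came from mice that received repeated intraperitoneal injections over several weeks of caerulein, a peptide that overstimulates the enzyme-secreting acinar cells, or of PBS. All 20 libraries are labelled wild type, with 5 in each of the 4 groups, and nothing in the labels says that they came from separate mice, so p-values measure the spread between these libraries, which may be technical. The labels number the libraries from 1 to 20, and values below are given in this order: acetone 1, 2, 3, 11 and 12, DNFB 4, 5, 6, 13 and 14, PBS 7, 8, 15, 16 and 17, and caerulein 9, 10, 18, 19 and 20.

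Chemokines bind receptors in overlapping sets, so that a receptor often reads several ligands and a ligand several receptors. In skin, Cxcl1, Cxcl2, Cxcl3 and Cxcl5 draw neutrophils through Cxcr2, Ccl2 and Ccl7 draw monocytes through Ccr2, and Ccl27a, which keratinocytes make, draws memory T cells through Ccr10. In inflamed pancreas, injured acinar cells and macrophages are known sources of Ccl2 and of the Cxcr2 ligands, while Cxcl13 and Ccl21a organize B cells, T cells and dendritic cells into lymphoid tissue.

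Each library held between 791491 and 2232039 counts, many of them on 3 predicted genes, and the 58 genes together held 69 to 1796 counts per library in acetone, 230 to 1105 in DNFB, 49 to 95 in PBS and 89 to 4172 in caerulein. Levels are given as normalized CPM, which are CPM after scaling by TMM (a factor per library that sets typical genes level) within each tissue. After this scaling 1 count was worth 3.02, 2.67, 1.67, 0.183 and 0.252 normalized CPM in the acetone libraries and 1.14, 0.19, 0.757, 0.24 and 0.187 in the caerulein libraries, so low values in acetone 1, 2 and 3 rest on very few reads. Acetone 11 and 12 stood apart with 1082423 and 948955 counts outside the predicted genes, against 106497 to 161203 in the other acetone libraries, and caerulein 10 stood apart with 4172 counts on the chemokine and receptor genes. Keratinocyte markers in skin summed to between 287 and 2990 normalized CPM in acetone and between 224 and 2230 in DNFB, with 0 of 9 at 0 in either group, and acinar cell markers in pancreas summed to between 7340 and 63100 in PBS and between 758 and 8720 in caerulein, with 0 of 10 at 0. In bulk RNA, fewer cells of a type and less RNA per cell cannot be told apart.

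Most of the 58 genes lay near the level of silent genes. At least 1 count was found for 56 of them, and Ccl21b and Ccl26 were at 0 in all 20 libraries. At least 20 counts over the 10 libraries of a tissue were found for 37 genes in skin and 32 in pancreas. The 1107 olfactory receptor genes, which neither tissue is known to use, served as a description of the level that silent genes reach in these libraries. Per kb of exon and summed over the 5 libraries of a group, their 95th percentile was 12.1 counts in acetone, 25.8 in DNFB, 10.2 in PBS and 17 in caerulein. Of the 58 chemokine and receptor genes, 21 lay above that level in acetone, 14 in DNFB, 2 in PBS and 21 in caerulein. In all, 27 lay above it in at least 1 group and 31 in no group, and Ccl6 and Pf4, a macrophage-made ligand of Ccr1 and platelet factor 4, lay above it in all 4 groups. A level of 0 or of a few counts says only that the gene was not detectable at this depth, since 3 counts were 0.000134% to 0.000379% of a library.

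On a scale of normalized CPM per kb of exon in 1 fit of all 20 libraries, the leading genes differed between the groups. In acetone the leading levels were 20.8 ± 26.2 for Ccl8, 16.4 ± 19 for Ccl27b and 12.7 ± 11.7 for Ccl27a (SD, n = 5). In DNFB they were 39.3 ± 53.6 for Ccl4, 21.9 ± 26.4 for Cxcl2 and 17.5 ± 28.1 for Ccl3. In PBS they were 6.66 ± 11.1 for Pf4, 6.38 ± 4.68 for Ccl6 and 4.24 ± 3.1 for Ccr2, the receptor of monocytes. Ccr2 in PBS lay below the 95th percentile of the olfactory receptor genes, which was 4.81 on this scale. In caerulein the leading levels were 50.3 ± 77.5 for Cxcl13, 39.6 ± 54.3 for Ccl6 and 26.8 ± 46.9 for Ccl2. In every group the neighbours in these orders differed by less than their SD. On the scale within each tissue, without division by length, the caerulein means fell from 36.7 to 11.2 normalized CPM for Cxcl13, from 45.2 to 17.9 for Ccl6 and from 19.3 to 4.03 for Ccl2 when caerulein 10 was left out. The acetone mean of Ccl8 fell from 18.6 to 5.33 without acetone 11 and 12.

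**Figure D1:**
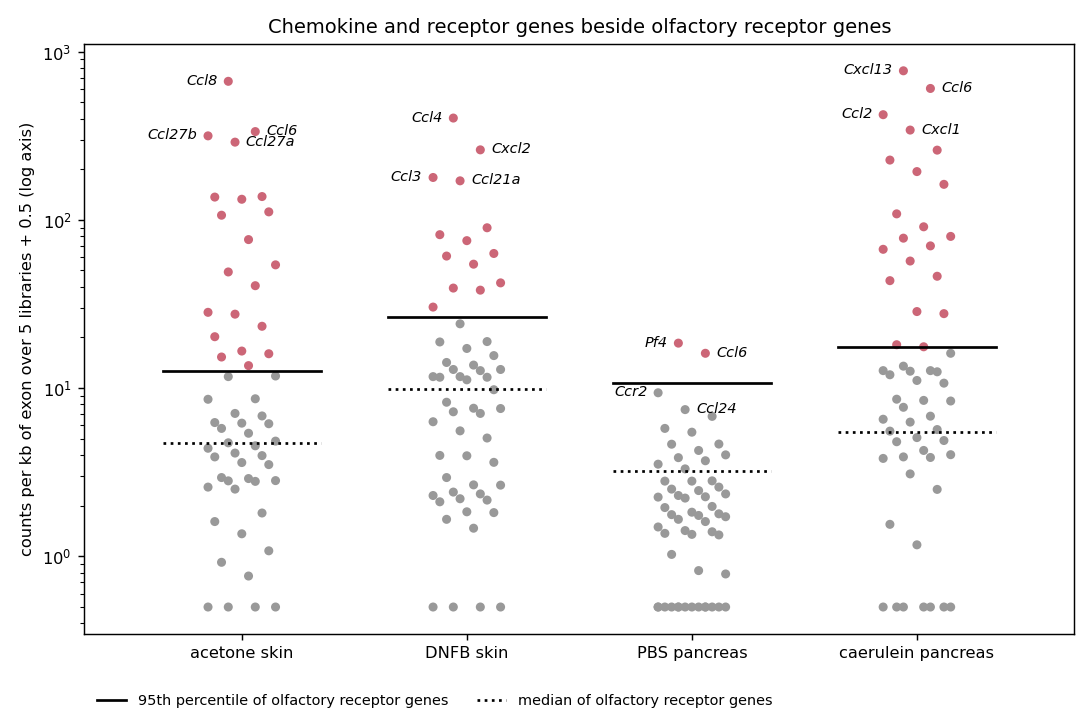
Counts per kb of exon summed over the 5 libraries of each group, plus 0.5, on a log axis, with 1 point per chemokine or receptor gene (58 points a group). The solid line is the 95th percentile and the dotted line the median of the 1107 olfactory receptor genes, and red points lie above the 95th percentile: 21 in acetone, 14 in DNFB, 2 in PBS and 21 in caerulein.

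Many of the 58 genes sit in clusters, with 14 on chromosome 11, 13 on chromosome 5, 11 on chromosome 9 and 5 on chromosome 4 of GRCm38. Cxcl1 lies at chr5:90891241-90893115 and Cxcl2 at chr5:90903871-90905938, both on the plus strand, and Ccl3 (chr11:83647844-83649355) lies beside Ccl4 (chr11:83662584-83664683). RefSeq promoter sequences (GRCm38.p6, 250 bases before each start) were found for 43 of the 58 genes. Letters like the binding site of NF-κB, read as GGGA, any 4 bases and CC on either strand, stood in 18 of these 43 (41.9%), against 5317 of 27025 promoters of all genes (19.7%). Letters like the interferon-stimulated response element, read as GAAA, any 2 bases and GAAA on either strand, stood in 3 of 43 (6.98%) against 936 of 27025 (3.46%). A match is a description of the letters and not a bound site, and no test was made. The sequences shown are those before the starts of the neutrophil-attracting ligands Cxcl1, Cxcl2 and Cxcl3, of Cxcl13, which had the highest level in caerulein, and of Cxcl10, which holds both motifs. They were chosen after the values were seen and are written 5′ to 3′ on the strand of the gene, ending at the base before the RefSeq start, which is not the start given above for Cxcl1 and Cxcl2 from the GENCODE gene models, with motif matches in capitals. Cxcl1, chr5:90891125-90891244 (plus strand): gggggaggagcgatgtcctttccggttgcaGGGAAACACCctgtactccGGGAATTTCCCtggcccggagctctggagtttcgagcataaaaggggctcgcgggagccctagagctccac
Cxcl2, chr5:90903779-90903898 (plus strand): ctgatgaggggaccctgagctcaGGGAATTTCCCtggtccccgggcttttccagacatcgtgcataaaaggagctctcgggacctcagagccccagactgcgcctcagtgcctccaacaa
Cxcl3, chr5:90785981-90786100 (plus strand): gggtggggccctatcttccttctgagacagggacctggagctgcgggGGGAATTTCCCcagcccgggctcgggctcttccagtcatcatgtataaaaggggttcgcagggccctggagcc
Cxcl13, chr5:95956819-95956938 (plus strand): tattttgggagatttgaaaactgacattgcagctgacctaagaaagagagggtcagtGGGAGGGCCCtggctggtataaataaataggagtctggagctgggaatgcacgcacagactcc
Cxcl10, chr5:92348890-92349109 (minus strand): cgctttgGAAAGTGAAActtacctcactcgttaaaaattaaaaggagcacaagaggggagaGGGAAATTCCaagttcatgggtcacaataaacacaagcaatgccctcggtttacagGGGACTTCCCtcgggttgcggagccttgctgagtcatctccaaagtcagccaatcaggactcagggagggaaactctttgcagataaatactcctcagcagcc

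The letters GGGAATTTCCC stood before each of Cxcl1, Cxcl2 and Cxcl3, and read on both strands they gave overlapping matches.  In Cxcl13 the capitals mark 1 match on the plus strand, and in Cxcl10 the first run of capitals marks the match to the interferon-stimulated response element and the others the matches to the NF-κB letters.

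**Figure D2:**
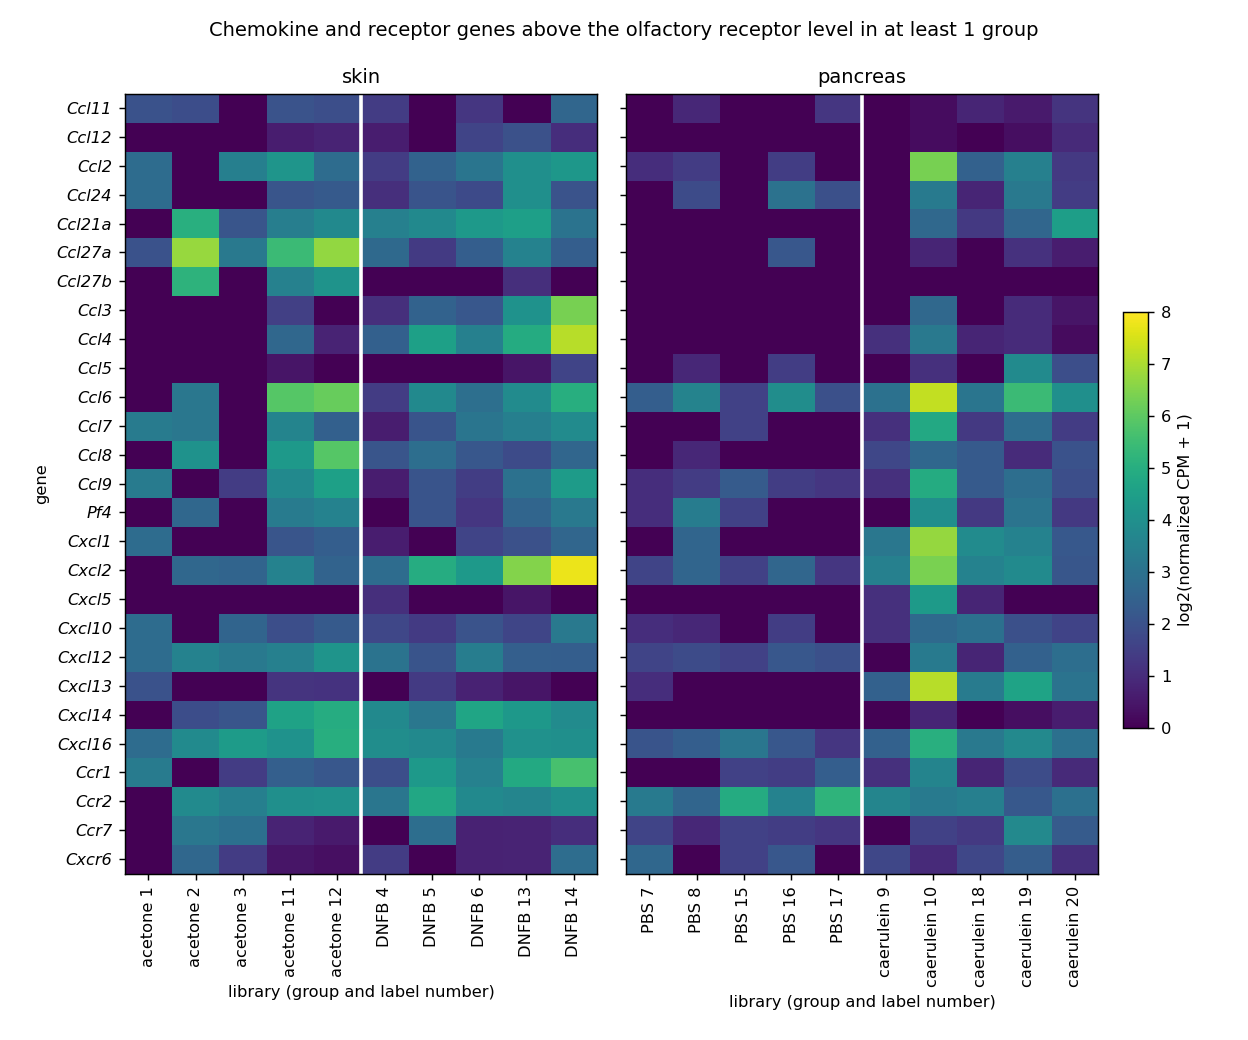
Levels of the 27 genes above the olfactory receptor level in at least 1 group, as log2(normalized CPM + 1) scaled within each tissue, with 1 column per library and a white line between control and treated libraries. Bright cells mark Cxcl2 and Ccl4 in DNFB 13 and 14, Ccl27a in acetone 2, 11 and 12, and Cxcl13, Ccl6, Cxcl1, Cxcl2 and Ccl2 in caerulein 10.

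The comparison of DNFB with acetone asked which of these genes differed in the epidermis under chronic contact dermatitis. The neutrophil-attracting ligand Cxcl2, the inflammatory CC ligands Ccl3 and Ccl4, and the receptor Ccr1 had higher levels in DNFB, and the keratinocyte ligands Ccl27a and Ccl27b had lower mean levels. By edgeR's quasi-likelihood test with Benjamini-Hochberg adjustment, 15 of the 58 genes passed the filter on low counts and 0 of these 15 were called, against 3 of 7265 genes (0.0413% called, 0.0275% higher and 0.0138% lower). At an unadjusted p under 0.05, edgeR found 5 of the 15 genes and 422 of all genes tested. DESeq2 called 3 of 39 (0.337% of all genes), with Cxcl2 and Ccl4 higher (0.164%) and Ccl27a lower (0.173%). Over every gene with at least 10 counts edgeR called 0 of 42 (0.0501%), with 10 of 42 and 2434 of 25956 genes at an unadjusted p under 0.05, and with no filter it called 4 of 56 (0.25%), with Ccl3 and Ccl4 higher (0.0925%) and Ccl27a and Ccl27b lower (0.157%). A two-sided exact permutation test of log2(normalized CPM + 1 count of the median library) was made for the 42 genes with at least 10 counts, and 5 of 42 were higher at p under 0.05, among them Cxcl2, Ccl3, Ccl4 and Ccr1 (4.81% of all genes), while 0 of 42 were lower (2.57% of all genes). The smallest p that 5 against 5 libraries allow is 0.00794, and 0 of 42 had an adjusted exact p under 0.05. The same test found 9.46% of 1046 olfactory receptor genes higher in DNFB, with a median log2 difference of 0.89, against a median of 0.48 over the 42 chemokine and receptor genes, 27 of them positive, and 0.21 over all genes. In 0 of 42 genes did every DNFB library lie below every acetone library (0.578% of all genes). With any single library left out, Cxcl2, Ccl3 and Ccl4 were again found by the exact test, while Ccr1 was found only without acetone 1 or without DNFB 4.

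Cxcl2, a ligand of Cxcr2 on neutrophils, measured 0, 5.33, 5.01, 10.8 and 4.79 normalized CPM in acetone and 6.14, 30.3, 18.6, 91.1 and 217 in DNFB. In 4 of 5 DNFB libraries it lay above every acetone library, with means of 5.19 ± 3.83 and 72.6 ± 86.9 (SD, n = 5), and DNFB 4 overlapped the controls. The difference was 3.13 ± 1.1 (SE) on the log2 scale by the exact test (p = 0.0159, adjusted p = 0.571), and edgeR gave a log2 fold change of 3.59 ± 0.89 (SE, adjusted p = 0.187) and DESeq2 an adjusted p of 0.0164. On library totals in place of TMM the exact test did not find Cxcl2. Part of the Cxcl2 counts was not whole (26.3% of its values above 0), which marks reads shared with near copies, so its split from them is uncertain. Cxcl3, encoded in the same cluster on chromosome 5, measured 3.02, 5.33, 5.01, 0.183 and 0.252 normalized CPM in acetone and 2.23, 9.56, 1.75, 11.4 and 18.8 in DNFB. Only DNFB 5, 13 and 14 lay above every acetone library, and the exact test gave p = 0.119. Cxcl1 measured 6.04, 0, 0, 3.3 and 4.28 normalized CPM in acetone and 0.559, 0, 2.1, 2.94 and 5.23 in DNFB. Its groups overlapped, with a log2 difference of -0.06 ± 0.89 (SE) and an exact p of 0.905. Cxcl15, best known from lung epithelium, measured 0, 0, 8.35, 0.183 and 0.756 normalized CPM in acetone and 4.47, 7.97, 1.05, 1.47 and 8.37 in DNFB, with overlapping groups (exact p = 0.0873). Cxcl5 and Ppbp held 3 and 2 counts in DNFB and 0 in acetone. Cxcr2, the neutrophil receptor of these ligands, measured 6.04, 8.0, 6.68, 0 and 0.504 normalized CPM in acetone and 2.23, 9.56, 1.05, 10.3 and 15.7 in DNFB. DNFB 5, 13 and 14 lay above every acetone library and DNFB 4 and 6 did not (exact p = 0.365). Cxcr1 held 3 counts in acetone and 2 in DNFB.

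Ccl4, an inflammatory ligand made by macrophages, measured 0, 0, 0, 5.31 and 0.756 normalized CPM in acetone and 4.47, 22.3, 10.2, 29.4 and 140 in DNFB. The acetone libraries 1, 2 and 3 were at 0, and 4 of 5 DNFB libraries lay above every acetone library, with means of 1.21 ± 2.31 and 41.3 ± 56.2 (SD, n = 5). The log2 difference was 4.12 ± 0.99 (SE) by the exact test (p = 0.0159, adjusted p = 0.571), and edgeR gave 4.21 ± 0.99 (SE, adjusted p = 0.154) and DESeq2 an adjusted p of 0.0176. With the label range (1 to 10 or 11 to 20) as a covariate, edgeR called Ccl4, at a log2 fold change of 4.91 (adjusted p = 0.027). Ccl3, a ligand of Ccr1, measured 0, 0, 0, 1.83 and 0 normalized CPM in acetone and 1.12, 4.78, 3.51, 15.8 and 81.6 in DNFB. All 10 acetone counts of Ccl3 came from acetone 11, and 4 of 5 DNFB libraries lay above every acetone library. The log2 difference was 3.26 ± 1.01 (SE) (exact p = 0.0159, adjusted p = 0.571). DNFB 5 and 6 held 3 and 10 counts, while 1 count was worth 3.02, 2.67 and 1.67 normalized CPM in acetone 1, 2 and 3. The place of DNFB 5 and 6 above these libraries cannot be told apart from depth. Ccr1, the receptor of Ccl3 on neutrophils, monocytes and macrophages, measured 9.07, 0, 1.67, 4.39 and 3.53 normalized CPM in acetone and 2.79, 19.1, 10.5, 27.9 and 50.2 in DNFB. Again 4 of 5 DNFB libraries lay above every acetone library, with a log2 difference of 2.32 ± 0.91 (SE) (exact p = 0.0476, adjusted p = 0.645) and an edgeR adjusted p of 0.404. Of the values of Ccr2 above 0, 15.8% were not whole. Ccl5 held 2 counts in acetone and 3 in DNFB.

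Ccl6, which macrophages make, measured 0, 8.0, 0, 58.2 and 70 normalized CPM in acetone and 1.68, 12.8, 6.66, 13.6 and 31.4 in DNFB, and Ccl9, a further Ccr1 ligand, measured 9.07, 0, 1.67, 13 and 22.2 normalized CPM in acetone and 0.559, 3.19, 1.75, 6.98 and 19.9 in DNFB. Acetone 11 and 12 held 99.5% of the acetone counts of Ccl6 and 97.5% of those of Ccl9. Without them the acetone mean of Ccl6 was 2.67 ± 4.62 (SD, n = 3) in place of 27.2 ± 34.1 (SD, n = 5), so that its order against the DNFB mean of 13.2 ± 11.3 (SD, n = 5) turned with these libraries. The order turned in the same way for Ccl9, with acetone means of 9.18 with and 3.58 without these libraries against 6.47 in DNFB, and for Pf4, with 5.06 and 1.78 against 3.62. The exact p with all libraries was 0.754 for Ccl6 and 0.802 for Ccl9. The sum of 11 neutrophil markers lay between 5.86 and 35.1 normalized CPM in acetone and measured 35.8, 172, 50.8, 279 and 789 in DNFB, with 0 of 11 markers at 0 in either group. S100a8 of this list, a calcium-binding protein abundant in neutrophils and made by inflamed keratinocytes, was called by edgeR (1.6 ± 1.24 and 99.6 ± 111 normalized CPM, SD, n = 5, adjusted p = 0.0460), and it was the 1 marker called of 2 tested. The sums of 8 pan-leukocyte markers and of 12 monocyte and macrophage markers were 39.7, 143, 99.6, 220 and 473 and 41.3, 155, 101, 200 and 375 in DNFB. In acetone they were 30.2, 50.7, 28.4, 115 and 143 for the pan-leukocyte markers and 54.4, 93.3, 36.7, 657 and 967 for the monocyte and macrophage markers. Both sums overlapped between the groups, and the macrophage sums of acetone 11 and 12 were above those of every DNFB library. Within DNFB alone, DNFB 14, 13, 5, 6 and 4 stood in this order from high to low in each of these 3 sums and in Cxcl2, Ccl3, Ccl4 and Ccr1, an order that was noticed after the values were seen. The order was not particular to leukocyte markers. The sum of 7 duct cell markers shared it, at 468, 140, 47.8, 38.6 and 28.5, as did the sums of atypical receptors and of chemokine-inducing cytokines. The keratinocyte, fibroblast and T and NK cell sums did not. The part of leukocyte number in the chemokine and receptor levels was not tested.

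**Figure D3:**
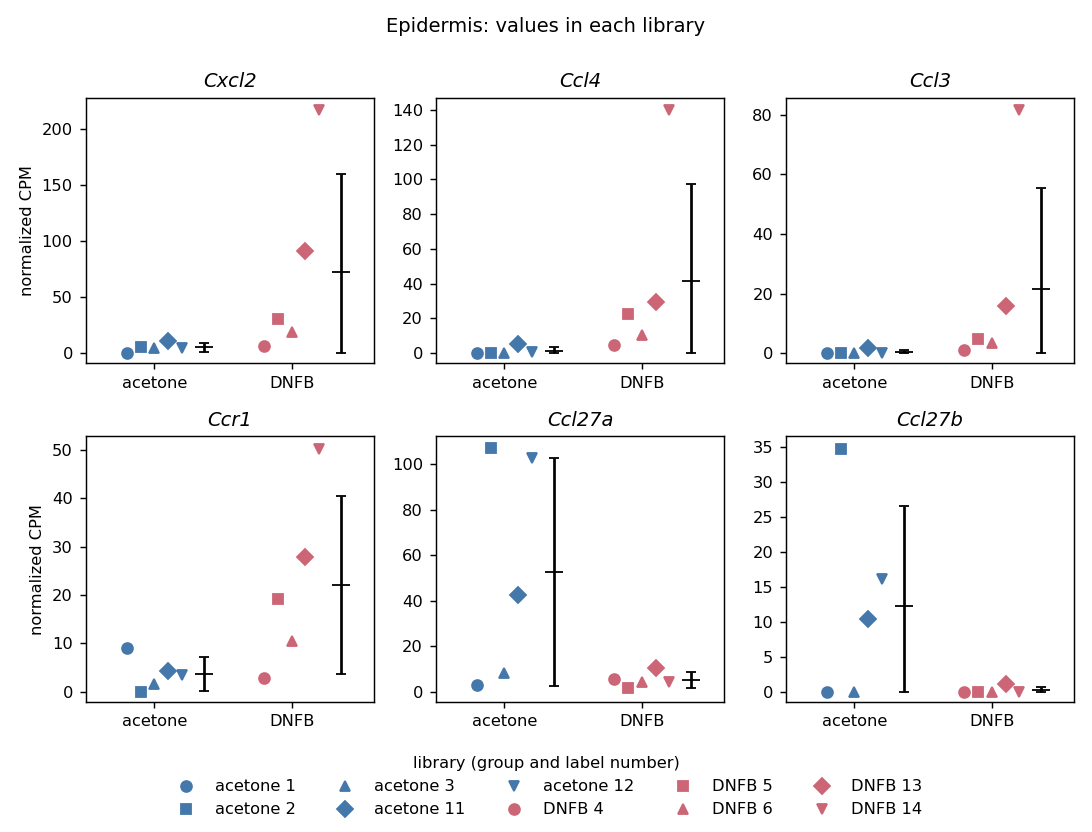
Normalized CPM of 6 genes in each epidermis library, with 1 symbol per library and the mean ± SD of 5 libraries beside each group (bars cut at 0). DNFB 13 and 14 carry the high values of Cxcl2, Ccl4, Ccl3 and Ccr1, and acetone 2, 11 and 12 lie above all DNFB libraries for Ccl27a and Ccl27b.

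Ccl27a, the skin ligand of Ccr10, measured 3.02, 107, 8.35, 42.7 and 103 normalized CPM in acetone and 5.59, 1.59, 4.21, 10.7 and 4.19 in DNFB. Acetone 2, 11 and 12 lay above every DNFB library and acetone 1 and 3 lay among them, with means of 52.6 ± 49.8 and 5.25 ± 3.35 (SD, n = 5). The log2 difference was -2.40 ± 1.04 (SE) by the exact test (p = 0.0714), while edgeR gave -3.24 ± 0.78 (SE, adjusted p = 0.154) and DESeq2 an adjusted p of 0.0183. Ccl27b, its near copy, measured 0, 34.7, 0, 10.4 and 16.1 normalized CPM in acetone and 0, 0, 0, 1.1 and 0 in DNFB. Acetone 2, 11 and 12 again held the counts, and 4 of 5 DNFB libraries were at 0 (exact p = 0.167). All values of Ccl27b above 0 and 50% of those of Ccl27a were not whole, so the reads were split between these copies by estimate and their division is uncertain. The keratinocyte marker sums were 354, 2000, 287, 1830 and 2990 normalized CPM in acetone, so acetone 1 and 3, which were low in Ccl27a, were also low in these markers. DNFB 4, 5, 6 and 13 had keratinocyte sums of 1010, 1260, 974 and 2230 and Ccl27a levels of 1.59 to 10.7, and DNFB 14 had the lowest keratinocyte sum of the 10 libraries, 224, and a Ccl27a level of 4.19. Of the 9 keratinocyte markers, 0 of 8 tested by edgeR were called and 2 of 9 were lower by the exact test. The receptor Ccr10 held 1 count in acetone and 2 in DNFB.

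Other epithelial ligands overlapped between the groups. Cxcl14, made by resting epithelium, measured 0, 2.67, 3.34, 23.6 and 30 normalized CPM in acetone and 12.8, 7.97, 25.2, 18.4 and 13.6 in DNFB. Acetone 1, 2 and 3 lay below every DNFB library, and acetone 11 and 12 lay above 4 of them or above all (exact p = 0.222). Ccl28, a ligand of Ccr10 and Ccr3 at mucosal surfaces, measured 9.07, 2.67, 11.7, 0.549 and 1.76 normalized CPM in acetone and 8.38, 22.3, 2.45, 5.14 and 9.42 in DNFB (exact p = 0.246). Ccl25, the ligand of Ccr9, measured 12.1, 2.67, 15, 3.11 and 2.77 normalized CPM in acetone and 11.2, 14.3, 7.36, 7.35 and 23 in DNFB, with only DNFB 14 above every acetone library (exact p = 0.127). Ccr9, the receptor of gut-homing T cells, measured 9.07, 0, 43.4, 2.2 and 3.27 normalized CPM in acetone and 24, 39.8, 6.31, 11.4 and 25.1 in DNFB. Acetone 3 held the highest value of Ccr9, the groups overlapped (exact p = 0.127), and 36.8% of its values above 0 were not whole. Cxcl17 held 1 count in acetone and 5 in DNFB. Cxcl16, a membrane-bound ligand of Cxcr6, measured 6.04, 13.3, 20, 15.9 and 31 normalized CPM in acetone and 14, 12.8, 8.76, 15.4 and 14.7 in DNFB, with overlapping groups (exact p = 0.579). Cx3cl1, the membrane-bound ligand of Cx3cr1, measured 15.1, 2.67, 0, 2.56 and 3.02 normalized CPM in acetone and 3.91, 1.59, 6.66, 5.88 and 1.05 in DNFB (exact p = 0.833). Its receptor Cx3cr1, found on monocytes and resident macrophages, measured 12.1, 0, 1.67, 0.732 and 0.504 normalized CPM in acetone and 2.23, 1.59, 0.701, 1.47 and 0 in DNFB, where the 12.1 of acetone 1 stood for 4 counts (exact p = 0.786). Cxcr6 held 6 counts in acetone and 13 in DNFB.

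The ligands Ccl2, Ccl7, Ccl8 and Ccl12 did not move together. Ccl2, the main ligand of Ccr2, measured 6.04, 0, 10, 17.2 and 6.04 normalized CPM in acetone and 1.68, 4.78, 7.71, 14.7 and 17.8 in DNFB. Ccl7, a ligand of Ccr2 and Ccr3, measured 9.07, 8.0, 0, 11.2 and 4.53 normalized CPM in acetone and 0.559, 3.19, 7.71, 9.92 and 13.6 in DNFB. Both overlapped between the groups, with exact p-values of 0.651 and 0.849. Ccl8 measured 0, 16, 0, 18.9 and 58.2 normalized CPM in acetone and 3.35, 6.38, 3.51, 2.57 and 5.23 in DNFB. Acetone 2, 11 and 12 lay above every DNFB library and acetone 1 and 3 were at 0, with 98.2% of the acetone counts in acetone 11 and 12 (exact p = 0.762). In acetone Ccl12, like Ccl2 and Ccl7 a ligand of Ccr2, measured 0, 0, 0, 0.549 and 0.756 normalized CPM. In DNFB it measured 0.559, 0, 2.1, 2.94 and 1.05, with DNFB 6, 13 and 14 above every acetone library (exact p = 0.0952). Ccr2, the receptor of inflammatory monocytes, measured 0, 13.3, 10, 14.8 and 15.6 normalized CPM in acetone and 7.82, 27.1, 13, 11.4 and 14.7 in DNFB. It was at 0 in acetone 1 and between 7.82 and 27.1 elsewhere, and the groups overlapped (exact p = 0.476).

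The remaining ligands and receptors of skin overlapped between the groups. Cxcl12, the ligand of Cxcr4 made by stromal cells, measured 6.04, 10.7, 8.35, 10.1 and 16.6 normalized CPM in acetone and 7.26, 3.19, 9.46, 4.41 and 4.19 in DNFB. DNFB 5, 13 and 14 lay below every acetone library, and the log2 difference was -0.81 ± 0.34 (SE) (exact p = 0.0556). Fibroblast markers, a list of 6, summed to 130 to 599 normalized CPM in acetone and 104 to 176 in DNFB, and 1 of 6 was lower by the exact test. Ccl21a, which lymphatic vessels make for cells with Ccr7, measured 0, 32, 3.34, 9.7 and 12.8 normalized CPM in acetone and 10.1, 12.8, 19.3, 22 and 7.33 in DNFB (exact p = 0.341), and 92.3% of its values above 0 were not whole. Ccr7, the receptor of migrating dendritic cells, measured 0, 8.0, 6.68, 0.732 and 0.504 normalized CPM in acetone and 0, 6.38, 0.701, 0.735 and 1.05 in DNFB (exact p = 0.706). The detected ligands of eosinophils, which express Ccr3, overlapped as well. Ccl11 measured 3.02, 2.67, 0, 3.11 and 2.77 normalized CPM in acetone and 1.68, 0, 1.4, 0 and 5.23 in DNFB (exact p = 0.429). Ccl24 measured 6.04, 0, 0, 3.3 and 3.78 normalized CPM in acetone and 1.12, 3.19, 2.45, 14.7 and 3.14 in DNFB, with DNFB 13 the highest (exact p = 0.325). Ccr3 measured 3.02, 2.67, 3.34, 0.549 and 2.27 normalized CPM in acetone and 1.68, 9.56, 0.701, 1.47 and 4.19 in DNFB (exact p = 0.77). Ccr4, a receptor of skin-homing and type 2 T cells, measured 12.1, 5.33, 0, 1.46 and 2.77 normalized CPM in acetone and 0, 1.59, 0.351, 0 and 1.05 in DNFB. Acetone 1, 2 and 12 lay above every DNFB library, on 25 counts in acetone and 3 in DNFB (exact p = 0.103). Of the interferon-induced ligands of Cxcr3, Cxcl10 measured 6.04, 0, 5.01, 2.75 and 3.78 normalized CPM in acetone and 2.23, 1.59, 3.15, 2.2 and 8.37 in DNFB (exact p = 0.873). Cxcl9 measured 0, 0, 5.01, 0 and 1.01 normalized CPM in acetone and 0.559, 4.78, 2.1, 4.41 and 6.28 in DNFB, with 2 acetone libraries and all DNFB libraries above 0 (exact p = 0.103). Ccl20, the ligand of Ccr6, measured 0, 0, 0, 0.915 and 1.01 normalized CPM in acetone and 1.68, 0, 0.701, 1.47 and 2.09 in DNFB (exact p = 0.143). Pf4 measured 0, 5.33, 0, 9.15 and 10.8 normalized CPM in acetone and 0, 3.19, 1.4, 5.14 and 8.37 in DNFB (exact p = 0.929), and 6 platelet and megakaryocyte markers summed to 4.39 to 36.3 in acetone and 5.96 to 17.5 in DNFB. Xcr1, the receptor of cross-presenting dendritic cells, measured 15.1, 0, 8.35, 0.366 and 1.51 normalized CPM in acetone and 8.94, 19.1, 1.4, 1.47 and 14.7 in DNFB (exact p = 0.286).

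The other genes held 1 to 19 counts over the 10 skin libraries. The counts in acetone and DNFB were 1 and 12 for Ccl1, 2 and 0 for Ccl17, 7 and 5 for Ccl22 and 4 and 2 for Ccr8, which together serve type 2 and regulatory T cells. They were 2 and 3 for Ccl19, 13 and 4 for Cxcl13 and 8 and 6 for Cxcr5 of the lymphoid tissue genes, 2 and 5 for Ccr6, 1 and 5 for Cxcl11 and 6 and 0 for Cxcr3. Cxcr4 held 2 and 3 counts, and Xcl1 held 3 and 1. Without acetone 11 and 12, edgeR called 0 of 17 (0.013% of all genes), with 7 of 17 and 751 of 7702 genes at an unadjusted p under 0.05. The exact test then found 3 of 40 genes higher (among them Ccl4 and Cxcl14, against 3.39% of all genes) and 1 lower (Ccl22, against 5.38%). Ccl22 held 2, 1 and 2 counts in acetone 1, 2 and 3 and 3, 1, 1, 0 and 0 in DNFB. In these acetone libraries 1 count was worth 1.67 to 3.02 normalized CPM, so its lower level cannot be told apart from depth. Without the same 2 acetone libraries, DESeq2 called Ccl4, Ccr1 and Cxcl2 higher among 5 genes given an adjusted p (8.48% of all genes), and edgeR over genes with at least 10 counts called Ccl4 alone of 40 (0.0671%).

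The comparison of caerulein with PBS asked the same of the pancreas under chronic pancreatitis. The lymphoid tissue ligands Cxcl13 and Ccl21a and the neutrophil-attracting ligands Cxcl1 and Cxcl2 were higher in caerulein by the exact test. So were the monocyte-attracting ligand Ccl7 and the ligands Ccl4, Ccl8, Cxcl10 and Cxcl16, while no receptor was higher. Caerulein 10 held most of the counts of many of these ligands. Only 946 genes passed edgeR's filter on low counts in pancreas, and Ccr2 was the only one of the 58 among them. By edgeR it was not called (adjusted p = 0.208, unadjusted p = 0.0711), against 115 of 946 genes called (12.2%, 8.35% higher and 3.81% lower). Over every gene with at least 10 counts, edgeR called 11 of 43 genes, all higher (4.95% of all genes were called and 4.62% were higher): Ccl2, Ccl4, Ccl6, Ccl7, Ccl8, Ccl9, Ccl21a, Cxcl1, Cxcl2, Cxcl5 and Cxcl13. DESeq2 called 7 of 20 genes given an adjusted p, all higher (8.53% of all genes were called and 7.44% were higher): Ccl2, Ccl6, Ccl7, Ccl9, Ccl21a, Cxcl13 and Cxcl16. With no filter edgeR called 14 of 52, all higher (3.33% of all genes, 3.18% higher). The exact permutation test found 9 of 43 higher at p under 0.05 (8.4% of all genes) and 0 lower (3.49%). In Ccl4, Ccl8 and Cxcl13 every caerulein library lay above every PBS library (3 of 43, against 1.68% of all genes). For Ccl4 this rested on 1 to 4 counts a library outside caerulein 10. For Ccl8, caerulein 19 lay below the worth of 1 count in PBS 7, 15, 16 and 17. After adjustment over all genes no exact p of these genes was under 0.33. The olfactory receptor genes went the other way on this scale, with 0.435% higher and 7.28% lower, a median log2 difference of -0.41, and medians of 0.47 over the 43 genes and 0.12 over all genes. With any single library left out, Ccl8, Ccl21a, Cxcl1, Cxcl10 and Cxcl13 were again found by the exact test, while Ccl4 was lost without caerulein 10, Cxcl2 without PBS 7, 15 or 17, Ccl7 without PBS 7, 8, 16 or 17 and Cxcl16 without PBS 7, 16 or 17 or caerulein 10, 18 or 19.

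Cxcl13, the B-cell-attracting ligand of Cxcr5, measured 1.07, 0, 0, 0 and 0 normalized CPM in PBS and 4.56, 139, 9.08, 23.8 and 7.3 in caerulein. All 5 caerulein libraries lay above every PBS library, 4 of which were at 0, and the means were 0.214 ± 0.479 and 36.7 ± 57.5 (SD, n = 5). The log2 difference was 3.98 ± 0.86 (SE) (exact p = 0.00794, adjusted p = 0.33), and the adjusted p was 5.07e-05 by DESeq2 and 0.000123 by edgeR over genes with at least 10 counts. Caerulein 10 held 82.6% of its caerulein counts, and without that library Cxcl13 was still called by edgeR over genes with at least 10 counts (adjusted p = 0.000215). Ccl21a, a ligand of Ccr7 on T cells and dendritic cells, measured 0 normalized CPM in all 5 PBS libraries and 0, 5.52, 1.51, 5.28 and 21.5 in caerulein. Caerulein 20 was the highest and caerulein 9 was at 0 like the PBS libraries (exact p = 0.0476, adjusted p = 0.401, DESeq2 adjusted p = 0.00982). Against a floor of 3 counts per PBS library its mean was at least 1.6-fold higher in caerulein. Cxcr5, the receptor of Cxcl13 on B cells, measured 0, 0.846, 3.88, 0 and 0 normalized CPM in PBS and 0, 1.14, 0.757, 6.01 and 3.74 in caerulein (exact p = 0.317). Ccr7 measured 2.14, 0.846, 1.94, 1.76 and 1.42 normalized CPM in PBS and 0, 1.9, 1.51, 12.5 and 3.93 in caerulein (exact p = 0.603). Both receptors were highest in caerulein 19, which also held the highest sum of 12 T and NK cell markers, 59.6 against 6.84 to 15.4 normalized CPM in the other caerulein libraries and 2.14 to 21.1 in PBS. The sums of B and plasma cell markers were 3.42, 76.5, 15.1, 244 and 101 normalized CPM in caerulein, also highest in caerulein 19, and 2.14 to 38.8 in PBS. The part of lymphocytes in these levels was not tested. Ccl5, made by T and NK cells, measured 0, 0.846, 0, 1.76 and 0 normalized CPM in PBS and 0, 1.14, 0, 13.2 and 2.81 in caerulein, with the highest value again in caerulein 19 (exact p = 0.325). Ccl19 held 0 counts in PBS and 10 in caerulein.

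Cxcl1, a ligand of Cxcr2, measured 0, 5.08, 0, 0 and 0 normalized CPM in PBS and 7.98, 105, 13.6, 10.8 and 3.56 in caerulein. Only PBS 8 was above 0 in PBS, 4 of 5 caerulein libraries lay above it, and the means were 1.02 ± 2.27 and 28.2 ± 43 (SD, n = 5). The log2 difference was 3.44 ± 0.93 (SE) (exact p = 0.0159, adjusted p = 0.374), with an adjusted p of 0.00231 by edgeR over genes with at least 10 counts. Cxcl2 measured 2.14, 5.08, 1.94, 5.28 and 1.42 normalized CPM in PBS and 10.3, 83.6, 10.6, 13.2 and 3.37 in caerulein. Here too 4 of 5 caerulein libraries lay above every PBS library (log2 difference 1.95 ± 0.76 (SE), exact p = 0.0238), and the adjusted p of edgeR over genes with at least 10 counts was 0.00974. Caerulein 10 held 86.1% of the caerulein counts of Cxcl1 and 82.1% of those of Cxcl2, and without it the adjusted p of Cxcl1 by edgeR over genes with at least 10 counts was 0.0353. Cxcl5, a Cxcr2 ligand of epithelial cells, measured 0 normalized CPM in all 5 PBS libraries and 1.14, 19.6, 0.757, 0 and 0 in caerulein. Caerulein 10 held 98.1% of these counts and caerulein 19 and 20 were at 0 (exact p = 0.167), and against a floor of 3 counts per PBS library the mean was at least 1.02-fold higher in caerulein. Cxcl3 held 1 and 7 counts in PBS and caerulein, Cxcl15 8 and 8, and Ppbp 1 and 13. Cxcr2 measured 2.14, 0, 0, 5.28 and 2.84 normalized CPM in PBS and 2.28, 5.52, 0, 0.721 and 0.562 in caerulein, with overlapping groups (exact p = 0.905), and Cxcr1 held 3 and 1 counts. The 11 neutrophil markers summed to between 1.07 and 14.2 normalized CPM in PBS, with 1 of 11 at 0, and to 12.5, 142, 17.4, 36 and 23.6 in caerulein, with 0 at 0, and 2 of 10 tested were higher by the exact test. Their part in these levels was not tested.

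Ccl2 measured 1.07, 1.69, 0, 1.76 and 0 normalized CPM in PBS and 0, 80.5, 4.54, 10.1 and 1.5 in caerulein. Caerulein 10, 18 and 19 lay above every PBS library, and caerulein 9 was at 0 (exact p = 0.151), while DESeq2 gave an adjusted p of 0.0125 and edgeR over genes with at least 10 counts 0.00327. Ccl7 measured 0, 0, 1.94, 0 and 0 normalized CPM in PBS and 1.14, 27.2, 1.51, 6.25 and 1.68 in caerulein. Only PBS 15 was above 0 in PBS, with 1 count, and caerulein 10 and 19 lay above it (exact p = 0.0317, adjusted p = 0.401, DESeq2 adjusted p = 0.0117). Ccl8 measured 0, 0.846, 0, 0 and 0 normalized CPM in PBS and 2.28, 5.33, 3.78, 0.961 and 3.0 in caerulein. Its groups did not overlap, and its log2 difference was 1.80 ± 0.34 (SE) (exact p = 0.00794, adjusted p = 0.33). By edgeR over genes with at least 10 counts the adjusted p was 0.043. Ccl8 held 1 count in PBS, in PBS 8, and 2, 28, 5, 4 and 16 counts in caerulein. The 0.961 of caerulein 19 lay below the worth of 1 count in PBS 7, 15, 16 and 17. Its separation from these libraries therefore cannot be told apart from depth. Ccl12 held 0 counts in PBS and 7 in caerulein. Ccr2 measured 8.56, 5.08, 29.1, 10.6 and 35.5 normalized CPM in PBS and 11.4, 8.57, 9.84, 3.6 and 6.74 in caerulein. PBS 15 and 17 lay above every caerulein library, and the edgeR log2 fold change was -1.15 ± 0.60 (SE, adjusted p = 0.208). This direction depended on the scaling, since on library totals in place of TMM the log2 fold change was 0.56, while the median over all genes moved from 0.06 to 1.69. The gene stood below that median under either scaling. In PBS Ccr2 held 8.88 counts per kb of exon, below the 95th percentile of the olfactory receptor genes (10.2). On the scale of the exact test those genes were lower in caerulein too, with a median log2 difference of -0.41.

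Ccl6 measured 4.28, 11, 1.94, 14.1 and 2.84 normalized CPM in PBS and 6.84, 154, 7.57, 42.5 and 14.8 in caerulein. Caerulein 10, 19 and 20 lay above every PBS library (exact p = 0.0714), and the adjusted p was 0.0129 by DESeq2. Ccl9 measured 1.07, 1.69, 3.88, 1.76 and 1.42 normalized CPM in PBS and 1.14, 29.3, 3.78, 6.49 and 2.81 in caerulein. Caerulein 10 and 19 lay above every PBS library (exact p = 0.111), and DESeq2 gave an adjusted p of 0.0462. Ccl3 measured 0 normalized CPM in all 5 PBS libraries and 0, 5.52, 0, 0.961 and 0.374 in caerulein (exact p = 0.167). Ccl4 measured 0 normalized CPM in all 5 PBS libraries and 1.14, 8.38, 0.757, 0.961 and 0.187 in caerulein. Every caerulein library held at least 1 count of Ccl4 and no PBS library held any (exact p = 0.00794, adjusted p = 0.33), and caerulein 10 held 86.3% of the counts. Outside caerulein 10 these were 1 to 4 counts a library, or 0.187 to 1.14 normalized CPM, while 1 count was worth 0.846 to 1.94 in the PBS libraries, so the separation of these libraries cannot be told apart from their depth. Ccr1, the receptor of Ccl3, Ccl6 and Ccl9, measured 0, 0, 1.94, 1.76 and 4.26 normalized CPM in PBS and 1.14, 11.2, 0.757, 2.64 and 0.936 in caerulein (exact p = 0.46). The 12 monocyte and macrophage markers summed to 16.1, 171, 25.2, 86.3 and 21.3 normalized CPM in PBS and to 87.8, 1770, 175, 942 and 273 in caerulein, with 0 of 12 at 0 in either group, and edgeR called Lyz2, the lysozyme of these cells, of 3 tested (adjusted p = 0.0194). Caerulein 10, 19, 20, 18 and 9 stood in this order from high to low in that sum and in Ccl6, an order noticed after the values were seen. The order was not particular to macrophage markers. The sum of 6 fibroblast markers shared it, at 1060, 443, 296, 145 and 121 normalized CPM, as did the neutrophil sum. The pan-leukocyte sum and the Langerhans and dendritic cell sum did not. The 10 acinar cell markers summed to 4760, 758, 8720, 1070 and 1500 normalized CPM in caerulein, with the lowest sums in caerulein 10, 19 and 20. Of these markers, edgeR called 9 of 9 tested lower in caerulein. The part of these cells in the chemokine levels was not tested.

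**Figure D4:**
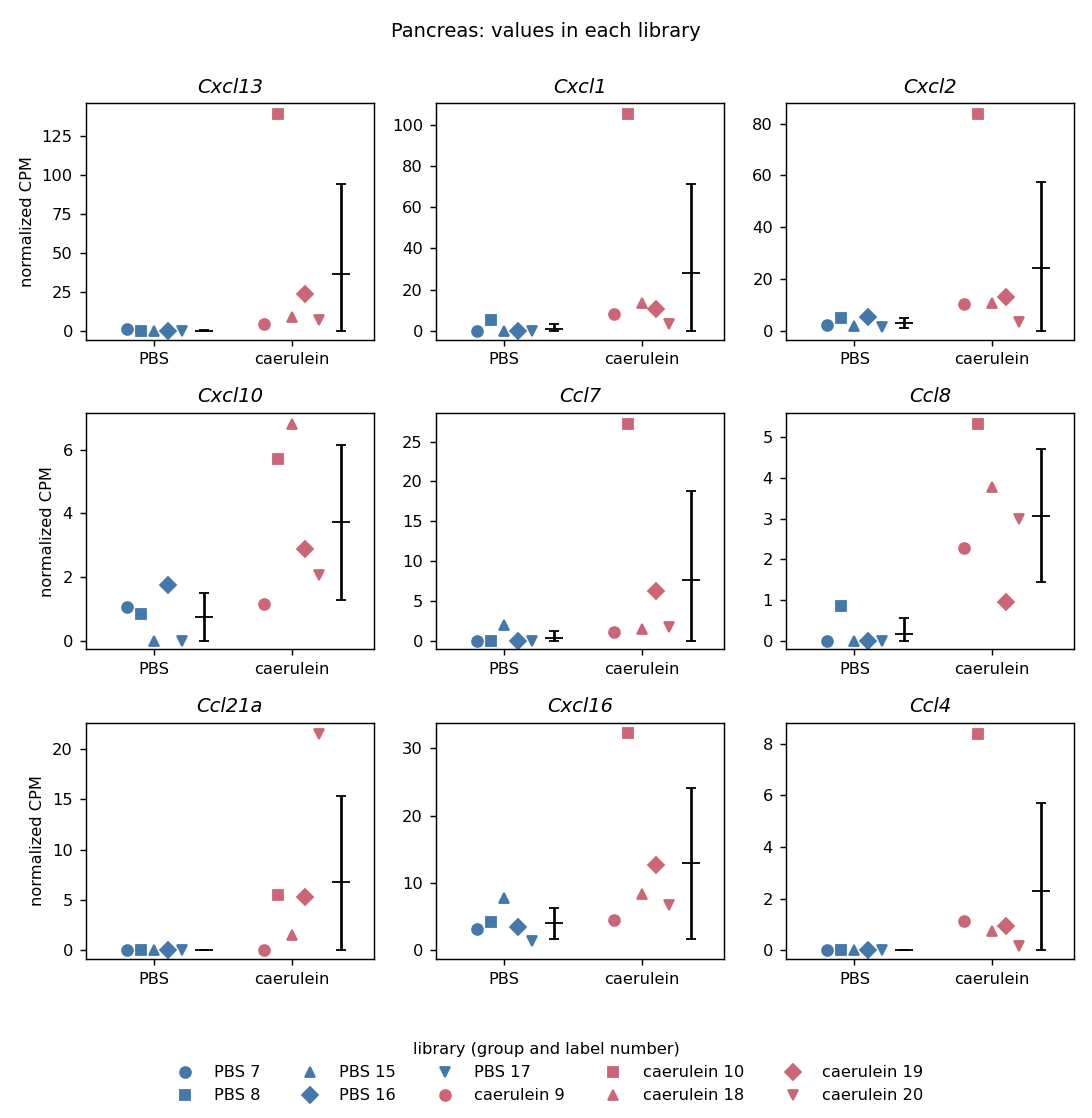
Normalized CPM in each pancreas library of the 9 genes higher in caerulein by the exact test, with 1 symbol per library and the mean ± SD of 5 libraries beside each group (bars cut at 0). Caerulein 10 is the highest library for Cxcl13, Cxcl1, Cxcl2, Ccl7, Ccl8, Cxcl16 and Ccl4, caerulein 18 for Cxcl10 and caerulein 20 for Ccl21a.

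Cxcl10, an interferon-induced ligand of Cxcr3, measured 1.07, 0.846, 0, 1.76 and 0 normalized CPM in PBS and 1.14, 5.71, 6.81, 2.88 and 2.06 in caerulein. It was highest in caerulein 18, 4 of 5 caerulein libraries lay above every PBS library, and the means were 0.735 ± 0.751 and 3.72 ± 2.43 (SD, n = 5) (log2 difference 1.43 ± 0.47 (SE), exact p = 0.0159, adjusted p = 0.374, DESeq2 adjusted p = 0.0893). Cxcl10 held 3 counts in PBS and 63 in caerulein. The other interferon-induced ligands were near 0, with 3 and 10 counts in PBS and caerulein for Cxcl9 and 2 and 4 for Cxcl11. Cxcr3 held 4 and 14. Cxcl16 measured 3.21, 4.23, 7.75, 3.52 and 1.42 normalized CPM in PBS and 4.56, 32.2, 8.33, 12.7 and 6.74 in caerulein. Caerulein 10, 18 and 19 lay above every PBS library (log2 difference 1.3 ± 0.54 (SE), exact p = 0.0317, adjusted p = 0.401), and DESeq2 gave an adjusted p of 0.0404. Its receptor Cxcr6, of T and NKT cells, measured 5.35, 0, 1.94, 3.52 and 0 normalized CPM in PBS and 2.28, 0.952, 2.27, 4.08 and 1.12 in caerulein (exact p = 0.587). Cxcl12 measured 2.14, 2.54, 1.94, 3.52 and 2.84 normalized CPM in PBS and 0, 8.76, 0.757, 4.56 and 6.36 in caerulein. The 5 PBS libraries lay close together and the caerulein libraries on both sides of them (exact p = 0.944). Its receptor Cxcr4 held 0 and 13 counts.

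The remaining genes of pancreas overlapped between the groups. Pf4 measured 1.07, 9.31, 1.94, 0 and 0 normalized CPM in PBS and 0, 14.5, 1.51, 7.45 and 1.5 in caerulein (exact p = 0.476). Ccl24 measured 0, 2.54, 0, 7.04 and 2.84 normalized CPM in PBS and 0, 8.57, 0.757, 8.41 and 1.68 in caerulein (exact p = 0.667), and its receptor Ccr3 measured 4.28, 0, 0, 3.52 and 7.1 normalized CPM in PBS and 4.56, 1.71, 3.78, 0.48 and 1.12 in caerulein (exact p = 0.944). These genes of eosinophils had means within 1 SD of each other in PBS and caerulein. Ccl25 measured 4.28, 3.38, 1.94, 1.76 and 1.42 normalized CPM in PBS and 3.42, 4.38, 1.51, 0.721 and 3.0 in caerulein (exact p = 0.937). Ccr9 measured 4.28, 0.846, 9.69, 12.3 and 1.42 normalized CPM in PBS and 14.8, 1.71, 8.33, 3.6 and 0.936 in caerulein (exact p = 0.968). Ccl28 measured 2.14, 1.69, 0, 5.28 and 0 normalized CPM in PBS and 3.42, 0.761, 7.57, 1.44 and 0.936 in caerulein (exact p = 0.46). These genes of gut and mucosa overlapped between the groups. Cx3cl1 measured 0, 3.38, 0, 0 and 1.42 normalized CPM in PBS and 0, 0.19, 1.51, 0.48 and 2.43 in caerulein (exact p = 0.841). Cx3cr1 measured 2.14, 1.69, 0, 0 and 1.42 normalized CPM in PBS and 1.14, 5.9, 0, 3.12 and 1.87 in caerulein, with caerulein 10 and 19 above every PBS library (exact p = 0.341). Xcr1 measured 4.28, 0.846, 0, 1.76 and 2.84 normalized CPM in PBS and 0, 0, 5.3, 1.68 and 0.187 in caerulein (exact p = 0.5). Among 9 Langerhans and dendritic cell markers, edgeR called 4 of 4 tested higher (H2-Aa, H2-Ab1, H2-Eb1 and Cd74, of the MHC class II pathway, which macrophages and B cells also use). Of markers more particular to dendritic cells, named after their values were seen, Flt3 was at 1.5 in PBS and 0.472 in caerulein (exact p = 0.365), Zbtb46 at 5.29 and 2.72 (exact p = 0.516), and the Langerhans cell marker Cd207 was at 0 in both groups.

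Counts in PBS and caerulein of the genes with 1 to 19 counts in pancreas were 2 and 11 for Ccl11, 4 and 5 for Ccl20, 4 and 14 for its receptor Ccr6, 3 and 10 for Ccl22, 1 and 8 for its receptor Ccr4 and 1 and 4 for Ccr8. The epithelial ligands Ccl27a, Cxcl14 and Cxcl17 held 2 and 12, 0 and 8 and 4 and 6 counts, and Ccr10 held 2 and 0. Ccl1, Ccl17, Ccl27b and Xcl1 were at 0 in all 10 pancreas libraries, like Ccl21b and Ccl26. Caerulein 10 held 74.9% to 98.1% of the caerulein counts of Ccl2, Ccl3, Ccl4, Ccl6, Ccl7, Ccl9, Cxcl1, Cxcl2, Cxcl5 and Cxcl13, and 17.3% of those of Ccl21a. Without caerulein 10, the exact test found 7 of 37 genes higher (Ccl7, Ccl8, Ccl21a, Cxcl1, Cxcl2, Cxcl10 and Cxcl13, against 6.36% of all genes), edgeR over genes with at least 10 counts called Ccl5, Ccl21a, Cxcl1 and Cxcl13 of 37 (3.17% of all genes), and DESeq2 called Cxcl13 of 8 given an adjusted p (6.98%).

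The difference between the skin and pancreas responses was put to an interaction test over the 20 libraries. By edgeR, 0 of 20 genes were called (0.264% of 8336 genes, 0.048% with a larger and 0.216% with a smaller response in skin), 9 of 20 and 1540 of all genes had an unadjusted p under 0.05, and over genes with at least 10 counts 3 of 52 were called with a smaller response in skin than in pancreas (0.559% of all genes, 0.518% in this direction): Cxcl13, Ccl8 and Cxcl1. The edgeR adjusted p over those genes was 0.0084 for Cxcl13, 0.0306 for Ccl8 and 0.0477 for Cxcl1. DESeq2 called 6 of 36 in the same direction (5.41% of all genes, 3.73% in this direction): Ccl6, Ccl7, Ccl8, Ccl21a, Cxcl13 and Cxcl16. Without caerulein 10, Cxcl13 alone of 50 genes with at least 10 counts was called by edgeR (adjusted p = 0.0424, 0.0959% of all genes). Without acetone 11 and 12, edgeR with its filter on low counts called 0 of 24, with 0 of 9385 genes called at all. With all libraries that filter also gave 0 of 20. The 3 calls over genes with at least 10 counts were not refitted without acetone 11 and 12, so this refit cannot bear on them. Of 34 genes with at least 10 counts in each tissue, Cxcl2 and Ccl4 were higher by the exact test in both. The matching share over all genes was not counted, so these 2 of 34 stand without a background. Ccl4 lost its call in pancreas without caerulein 10. Cxcl2 lost its call in pancreas without PBS 7, 15 or 17, and its call in skin on library totals. For Cxcl2 the log2 differences were 3.13 ± 1.1 (SE) in skin and 1.95 ± 0.76 (SE) in pancreas. Cxcl1 and Cxcl13 showed the contrast, at -0.06 ± 0.89 (SE) and -0.41 ± 0.56 (SE) in skin and 3.44 ± 0.93 (SE) and 3.98 ± 0.86 (SE) in pancreas.

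**Figure D5:**
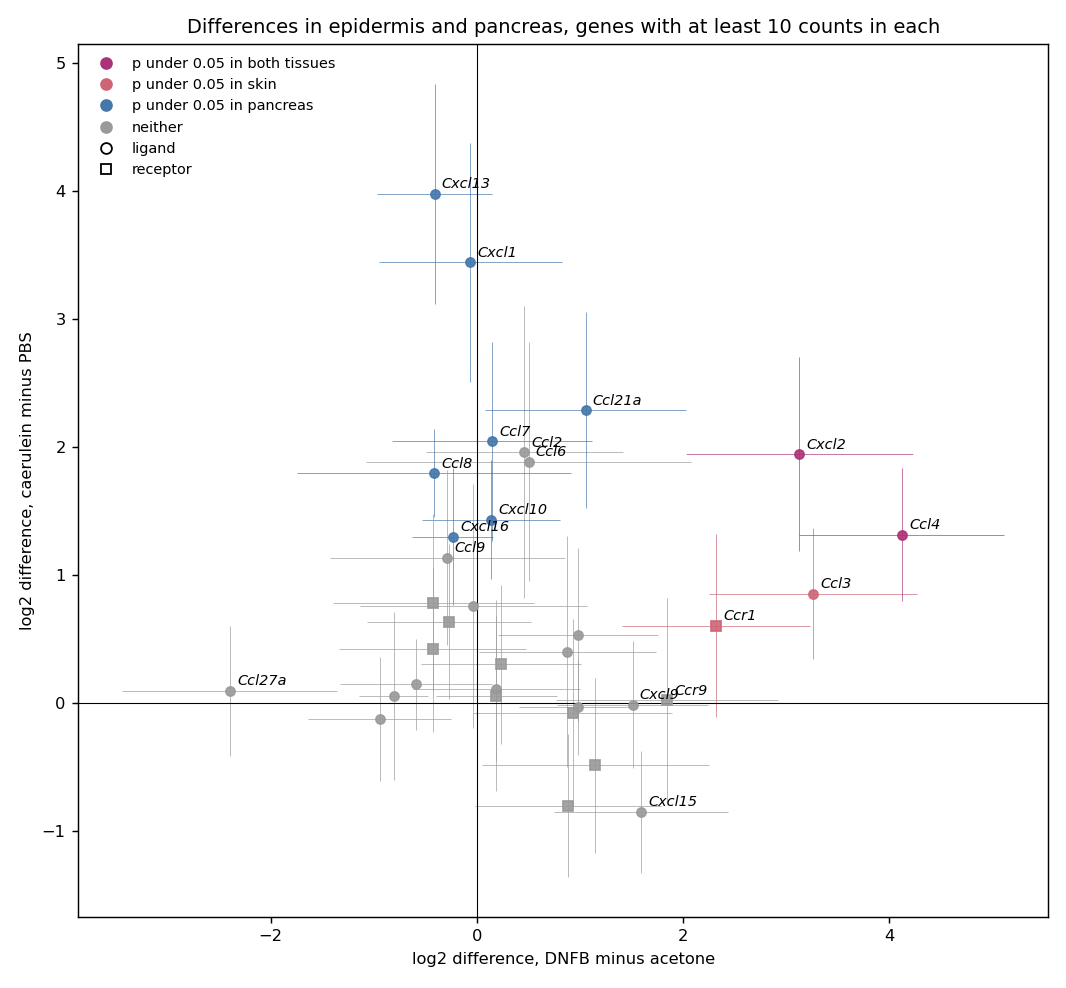
Differences in mean log2(normalized CPM + 1 count of the median library) for 34 genes with at least 10 counts in each tissue, DNFB minus acetone on the x axis and caerulein minus PBS on the y axis, with bars of 1 SE (circles ligands, squares receptors, colours the exact test at p under 0.05). Cxcl2 and Ccl4 lie to the upper right, Cxcl13 and Cxcl1 near 0 on the x axis and high on the y axis, and Ccl27a to the left.

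The control tissues also differed, although skin and pancreas were exposed to different vehicles, so that tissue and vehicle cannot be told apart. In the fit of 20 libraries, edgeR called 5 of 20 genes between acetone and PBS (10.4% of all genes, 6.72% higher in skin and 3.72% lower). Ccl27a was higher in skin, at 30.1 ± 27.9 and 0.889 ± 1.99 normalized CPM (SD, n = 5, edgeR adjusted p = 0.00234). Cxcl14 was at 6.93 ± 7.92 in acetone and at 0 in all PBS libraries (SD, n = 5, edgeR adjusted p = 0.0109), at least 1.01-fold higher against a floor of 3 counts per library. Ccl21a was at 6.66 ± 7.0 in acetone and at 0 in all PBS libraries (SD, n = 5, edgeR adjusted p = 0.0293), and since this mean lay below the PBS floor of 6.87 no fold is given. Ccr2 was lower in skin, at 6.34 ± 3.68 against 28.6 ± 20.9 normalized CPM (SD, n = 5, edgeR adjusted p = 0.0293). In PBS its level per kb of exon, 4.24, lay below the 95th percentile of the olfactory receptor genes (4.81). On library totals in place of TMM, Ccr2 was higher in skin, at a log2 fold change of 0.96, while the median over all genes moved from 0.29 to 2.88, so it stood below that median under either scaling. Over genes with at least 10 counts edgeR called 5 of 52, all higher in skin (6.02% of all genes, 5.09% higher): Ccl8, Ccl21a, Ccl27a, Ccl27b and Cxcl14. DESeq2 called 5 of 36 (12.2% of all genes), with Ccl8, Ccl21a, Ccl27a and Cxcl14 higher in skin (7.74%) and 1 gene lower (4.43%). Library totals gave 12 of 20, all higher in skin (74.0% of all genes, 73.4% higher), in place of 3 higher and 2 lower. Without acetone 11 and 12, Ccl27a alone of 24 was called (1.66% of all genes).

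Other genes of the pathway were taken from fixed lists. Beside their counts stand the shares that the exact test found over all genes, which were 4.81% higher and 2.57% lower in skin and 8.4% higher and 3.49% lower in pancreas. The exact p-values of this paragraph are unadjusted. After adjustment over all genes, the smallest exact p was 0.479 in skin and 0.33 in pancreas, so that 0 genes were called in either tissue. Of 5 atypical receptors, which bind chemokines without G protein signalling, 0 were higher and 2 lower in DNFB by the exact test. The list as a whole did not fall, with a median log2 difference of 0.13. The sum of the 5 was 15 to 30.2 in acetone and 8.38, 23.9, 11.9, 36.4 and 52.3 in DNFB. Ackr2, which degrades inflammatory CC ligands, was at 4.63 ± 2.71 in acetone and 0.853 ± 0.921 in DNFB (SD, n = 5, exact p = 0.00794), and Ackr3, which takes up Cxcl12, at 6.24 ± 3.31 and 1.35 ± 1.38 (SD, n = 5, exact p = 0.0159). In pancreas Ackr3 was lower as well, at 3.06 ± 2.33 in PBS and 0.696 ± 0.927 in caerulein (SD, n = 5, exact p = 0.0397), and Ackr1, an atypical receptor of venules and red cells, was higher, at 0 and 1.17 ± 0.861 (SD, n = 5, exact p = 0.0476). Of 22 genes of receptor signalling, edgeR called 0 of 14 tested in skin and 0 of 3 in pancreas, and the exact test found 0 of 21 higher or lower in skin and 7 of 22 higher in pancreas, among them Cdc42, Rac2, Gnb1 and Rac1. Rac2, the Rac GTPase of blood cells, was at 1.39 ± 1.45 in PBS and 23.8 ± 21.2 in caerulein (SD, n = 5, exact p = 0.00794). Of 15 cytokines that induce chemokines, 3 of 9 tested were higher and 1 lower in DNFB by the exact test, and edgeR called 0 of 2 tested. Il1b was at 1.79 ± 2.57 and 70.9 ± 74.9 (SD, n = 5, exact p = 0.00794, edgeR adjusted p = 0.0523), Il1a at 0.197 ± 0.319 and 10.8 ± 8.37 (exact p = 0.00794) and Osm at 3.31 ± 2.19 and 21.3 ± 18.3 (exact p = 0.0238), and Il33 was lower, at 11.1 ± 4.04 and 4.77 ± 1.82 (exact p = 0.0238). In pancreas 1 of 7 tested was higher, Il1a, at 0 in PBS and 1.59 ± 1.27 in caerulein (SD, n = 5, exact p = 0.0476), which is near the share over all genes. These levels are normalized CPM within each tissue.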

How the data were processed

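Smart-Seq2 libraries of epidermis and pancreas RNA were sequenced by the study, 5 in each of 4 groups taken from the labels. The deposited table holds expected counts per gene, which the authors estimated with RSEM (1.3.1) after alignment with STAR (2.5.3) to GRCm38; these versions and DESeq2 (1.24.0) stand in the submitters' processing notes. Of the values, 94.7% were whole within 0.005, and all were rounded. Reads that fit several near copies are divided among them by estimate, so paralogs can exchange counts.

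Each tissue was fitted with edgeR (4.0.16, R 4.3.3): filterByExpr with a minimum count of 10, TMM, the quasi-likelihood test and Benjamini-Hochberg adjustment over all genes tested, with a threshold of 0.05. The interaction and acetone against PBS came from a fit of the 20 libraries. Two-sided exact permutation tests on log2(normalized CPM + 1 count of the median library) covered every gene with at least 10 counts in a tissue (SciPy 1.17.1, NumPy 2.4.6, Python 3.11.15). DESeq2 (1.42.0), other filters and scalings, and fits without single libraries were alternatives. The scripts were tested on simulated data. No 2 libraries of a group were identical in 40 pairs. Figures were drawn with matplotlib (3.10.9).

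The genes and lists were chosen with earlier results of these data known. The values of 1 gene of the rule are not reported here. Every other gene was accounted for: those with at least 20 counts in a tissue by their value in every library, those with 1 to 19 by summed counts, and of other lists at most 4 genes each. The dendritic cell markers Flt3, Zbtb46 and Cd207 were named beyond this limit, after their values were seen. Total counts were 791491 to 2232039 per library, and 3 counts were taken as the floor of a library; this covers counting error only, since Smart-Seq2 reads carry no molecular identifiers.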

Additional observations from a re-analysis of the deposited data

Results flagged for a closer look

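In 134 groups of 5 libraries (a gene with at least 20 counts in the tissue, in 1 group), 13 (9.7%) held a library whose gap to its nearest neighbour, as a share of the group's range, reached or passed 0.71. Chance gives about 1 in 20 for normally distributed values, which these are not: in 6 of the 13 groups 1 library held counts and the other 4 were at 0, which sets the share at 1.0, so 9.7% has no fair comparison. The isolated library was the highest in 9 and the lowest in 4, and levels are normalized CPM.

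In acetone skin, library 3 was at 0 for Ccl11 against 2.67 to 3.11 in the others (share 0.926) and at 8.35 for Cxcl15 against 0 to 0.756 (0.718). Acetone 1 was at 0 for Ccr2 against 10 to 15.6 (0.865) and at 0 for Cxcl2 against 4.79 to 10.8 (0.733). Acetone 11 was at 1.83 for Ccl3 with the others at 0 (1.0) and at 0.549 for Ccr3 against 2.27 to 3.34 (0.736). In DNFB skin, library 13 alone was above 0 for Ccl27b, at 1.1 (1.0).

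In PBS pancreas, 1 library alone was above 0 for each of 4 ligands (share 1.0 each): library 15 for Ccl7 at 1.94, library 8 for Ccl8 at 0.846 and for Cxcl1 at 5.08, and library 7 for Cxcl13 at 1.07. In caerulein pancreas, library 10 was at 8.38 for Ccl4 against 0.187 to 1.14 (0.71) and at 19.6 for Cxcl5 against 0 to 1.14 (0.743).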

How the results depend on the processing

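Counts of chemokine and receptor genes called moved with the filter and tool. In skin, edgeR called 0 of 15, DESeq2 3, edgeR with no filter 4 and with the label range (1 to 10 or 11 to 20) as a covariate 1 (Ccl4); without acetone 11 and 12, which was chosen after seeing the data where combined with another filter or tool, edgeR over genes with at least 10 counts called 1 and DESeq2 3. In pancreas, edgeR called 0 of 1, DESeq2 7, edgeR over genes with at least 10 counts 11 and with no filter 14, and without caerulein 10 (also chosen after seeing the data) edgeR over genes with at least 10 counts called 4 and DESeq2 1. For the interaction, edgeR called 0, genes with at least 10 counts gave 3, or 1 without caerulein 10, and DESeq2 gave 6. For acetone against PBS, library totals gave 12 in place of 5, and leaving out acetone 11 and 12 gave 1. On library totals Ccl25, Ccr1 and Ccr2 changed sign, to log2 fold changes of 1.77, 2.56 and 0.96. With TMM they were at -0.37 ± 0.73, -0.08 ± 1.08 and -2.04 ± 0.605 (SE), and of these only Ccr2 was called. The median over all genes moved from 0.29 to 2.88, above these genes under either scaling. The exact test in skin found 8 on library totals in place of 5 (Ccl3, Ccl4, Ccl25, Ccl28, Ccr1, Cxcl3, Cxcl9 and Cxcr2, while Cxcl2 was lost), with 11.6% of all genes in place of 7.38%. Leaving out 1 library at a time gave 0 to 1 called by edgeR in skin (Ccl27a without acetone 3), 0 to 4 in pancreas (1 without PBS 7, 15, 16 or 17 or caerulein 18, 3 without PBS 8 and 4 without caerulein 9), 0 to 4 for the interaction (4 without acetone 3, 2 without PBS 8 or caerulein 9 and 1 without acetone 1 or DNFB 5 or 6) and 3 to 5 for acetone against PBS (3 without acetone 2 or 12 or PBS 15 or 17). The calls over all genes moved as well. In skin they were 59 of 8505 without acetone 3, against 3 of 7265 with every library. In pancreas they were 280 of 1331 without PBS 8, 267 of 1542 without caerulein 9 and 15 of 1585 without PBS 7, against 115 of 946. For the interaction they were 625 of 9506 without acetone 3, against 22 of 8336. For acetone against PBS they were 694 of 9763 without acetone 2, against 870 of 8336. The exact test gave 4 to 9 in skin (9 without acetone 3, with 13.8% of all genes in place of 7.38%, and 8 without acetone 1) and 6 to 14 in pancreas (14 without caerulein 9, with 15.7% of all genes in place of 11.9%, and 6 without PBS 7 or 17). Over 53 results for single genes, 1079 of 1228 refitted values kept their direction and side of the threshold, and over 83 exact results 852 of 1013 did. Causes were not tested. Depth limits the low genes, since 31 of 58 lay below the 95th percentile of olfactory receptor genes in every group. No paired analysis was possible because the labels repeat no replicate number between groups.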
